A study of Homo sapiens with 6 samples.

Results

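The 54 protein-coding genes described here encode 24 nucleoporins, 26 nuclear transport receptors and 4 other proteins named for Ran binding. These 4 are RANBP1, RANBP3, RANBP9 and RANBP10. All 54 are called transport genes below. They were chosen by gene symbol alone from the 20046 protein-coding genes of GENCODE 44, with no measured value used: symbols starting with NUP and a number, KPNA1 to KPNA7, KPNB1, the IPO and TNPO genes, XPO1, XPO4, XPO6, XPO7, XPOT, CSE1L and the RANBP genes. What was measured on them was the RNA contacted by IGF2BP3, an RNA-binding protein of the IGF2BP family, in HCT116 human colorectal carcinoma cells carrying the Tet-OsTIR1-PURO transgene. All cells were labelled with 4-thiouridine at 100 µM for 15 h and crosslinked with UV light, so that contacted RNA carries T-to-C conversions (PAR-CLIP). Each of 5 RNase treatments gave 1 IGF2BP3 library, and 1 IgG library served as control.

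The treatments are named by enzyme and by concentration in U/µL, in the lysate and then on the beads: RNase I 0.05/0.05, RNase I 0.1/0.025, RNase I 0.05/0.025, RNase T1 1/1 and RNase T1 0.25/0.25. Values for a gene are given in this order throughout. RNase I cuts after any base, whereas RNase T1 cuts after guanosine. The gel was electroeluted for RNase I 0.05/0.05 and for RNase T1 1/1, and crushed for the other 3 IGF2BP3 libraries. Gel extraction thus cannot be told apart from the RNase T1 concentration or from the RNase I concentration on the beads. The RNase I concentration in the lysate differed between RNase I 0.1/0.025 and RNase I 0.05/0.025, both from crushed gel. The IgG library used RNase I 0.1/0.025. The anti-IGF2BP3 antibody also recognised IGF2BP2 to some extent, per the study's methods. With 1 library per condition, no difference between conditions has a replicate check, and no test was made.

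Nuclear pore complexes are built from nucleoporins: a Y complex that scaffolds both faces, an inner ring, channel nucleoporins with phenylalanine-glycine repeats, filaments on the cytoplasmic side and a basket on the nuclear side. Importin alpha proteins bind classical nuclear localisation signals and are carried by importin beta (KPNB1). The other importins and the transportins bind cargo directly, exportins carry cargo out, and the GTPase Ran sets the direction. IGF2BP proteins bind mRNAs, mainly in the 3′UTR, through KH domains that prefer CA-rich elements such as CAU.

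The IGF2BP3 libraries held from 182448 (RNase T1 0.25/0.25) to 2362467 (RNase I 0.05/0.05) reads in clusters, the crosslinked regions called in each library. The IgG library held 25 clusters with 324 reads, and 0 of these clusters lay on an exon of the 54 genes. In the IGF2BP3 library with the same RNase treatment, 399 of 43385 clusters lay on them. With only 25 IgG clusters, this absence therefore says little about background on the 54 genes. Levels are CPM, reads in clusters scaled to 1000000 cluster reads of the library. Intervals are 95% intervals that cover counting error only. Of the epithelial markers, EPCAM was a target in all 5 libraries, KRT8 and KRT18 in 3 each, KRT19 in 2 and CDH1 in 1, whereas PTPRC, CD3E, COL1A1, ALB and VWF had no cluster. Abundance of the mRNAs was not measured, so more transcript and more binding per transcript cannot be told apart.

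The strongest sites that lay under clusters of all 5 libraries give a view of the RNA itself. They are shown for 5 of the genes with the highest mean CPM, as up to 30 nt at the middle of the common stretch, in the direction of transcription. Capitals mark CAT followed by A, C or T, the DNA form of the CAU element. All lie in the 3′UTR, in the last exon of the canonical transcript. Coordinates are of GRCh38: KPNA6 chr1:32174415-32174444, KPNB1 chr17:47683000-47683029, KPNA2 chr17:68046737-68046766 and NUP58 chr13:25342177-25342206 on the plus strand, and KPNA4 chr3:160495754-160495757 on the minus strand.
KPNA6: aactgtatttcCATTtcttcatgtctacct
KPNB1: gcagtttctttttcccagaaaacaaggggt
KPNA2: tgtaCATACATActgtatgaagcttgtcct
NUP58: taCATAcacaattacaacaaacttttttta
KPNA4: cttg
KPNA2 held 2 such elements, KPNA6 and NUP58 held 1 each, and the KPNB1 window and the 4 nt of KPNA4 held 0. A match is a description of the letters, not a binding site.

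The KPNA2 site, 155 nt after the stop codon, had the highest mean level of any common site of the 54 genes, 335 CPM over a stretch of 78 nt. Its clusters held 154, 398, 447, 56.2 and 619 CPM, with 0.736, 0.722, 0.603, 0.538 and 0.602 conversions per read. It was highest in the 3 crushed-gel libraries and lowest in both electroeluted ones. The KPNB1 site, 610 nt after the stop codon, had a common stretch of 102 nt and 139, 172, 168, 146 and 411 CPM, with at least 0.704 conversions per read in every library. The NUP58 site, 2057 nt after the stop codon, held 25.4, 54.8, 55.2, 143 and 252 CPM, higher with RNase T1 than with RNase I. Its conversions per read were 0.417, 0.273, 0.459, 0.200 and 0.174, so none of these NUP58 clusters met the target criterion below.

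Of the 54 genes, 20 (37.0%) had a nucleotide under clusters of all 5 libraries, beside 12.5% of all protein-coding genes. These common stretches numbered 70. In 15 genes (27.8%) such a stretch lay under clusters above 10 CPM, beside 10.2% of all protein-coding genes, and in 16 (29.6%) it was at least 20 nt long, beside 11.1%.

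The transport genes were targets more often than the background of protein-coding genes. A target, by the criterion of the study's methods, had at least 1 cluster above 10 CPM with more than 0.5 conversion events per read. Targets numbered 27 of 54 with RNase I 0.05/0.05 (background 21.9%), 28 with RNase I 0.1/0.025 (background 21.3%) and 37 with RNase I 0.05/0.025 (background 22%). With RNase T1 1/1 there were 24 (background 19.6%) and with RNase T1 0.25/0.25 there were 20 (background 13.7%). In at least 1 library 39 genes (72.2%) were targets, beside 29.5% of all protein-coding genes. In all 5 libraries 14 (25.9%) were targets, beside 9.91%. These 14 were KPNA6, KPNB1, IPO7, KPNA2, NUP58, KPNA4, XPO1, KPNA3, NUP153, XPOT, KPNA1, RANBP2, NUP50 and XPO4.

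Any cluster at all was present in 48 genes (88.9%, beside 46.7% of protein-coding genes), and in all 5 libraries in 25 (46.3%, beside 15.8%). IPO13, NUP210L, KPNA7, RANBP17, NUP93 and NUP85 had no cluster in any library. A mean of 100 CPM or more was reached by 18 genes (33.3%), beside 10.1% of all protein-coding genes. Over all 54 genes the median of the mean CPM was 38.6. Among genes with a cluster it was 45.3 for the 48 members and 19.7 for the 9353 protein-coding genes. The 54 genes are 0.269% of protein-coding genes and held 0.567%, 0.614%, 0.612%, 0.579% and 0.509% of the cluster reads of the 5 libraries. Longer transcripts had only slightly higher levels, with Spearman's rho of 0.249 between transcript length and mean CPM and 0.371 with 3′UTR length over the 54 genes. The levels of the 48 genes correlated between pairs of libraries with rho from 0.803 to 0.957, values that also carry the length and abundance of each transcript.

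**Figure D1:**
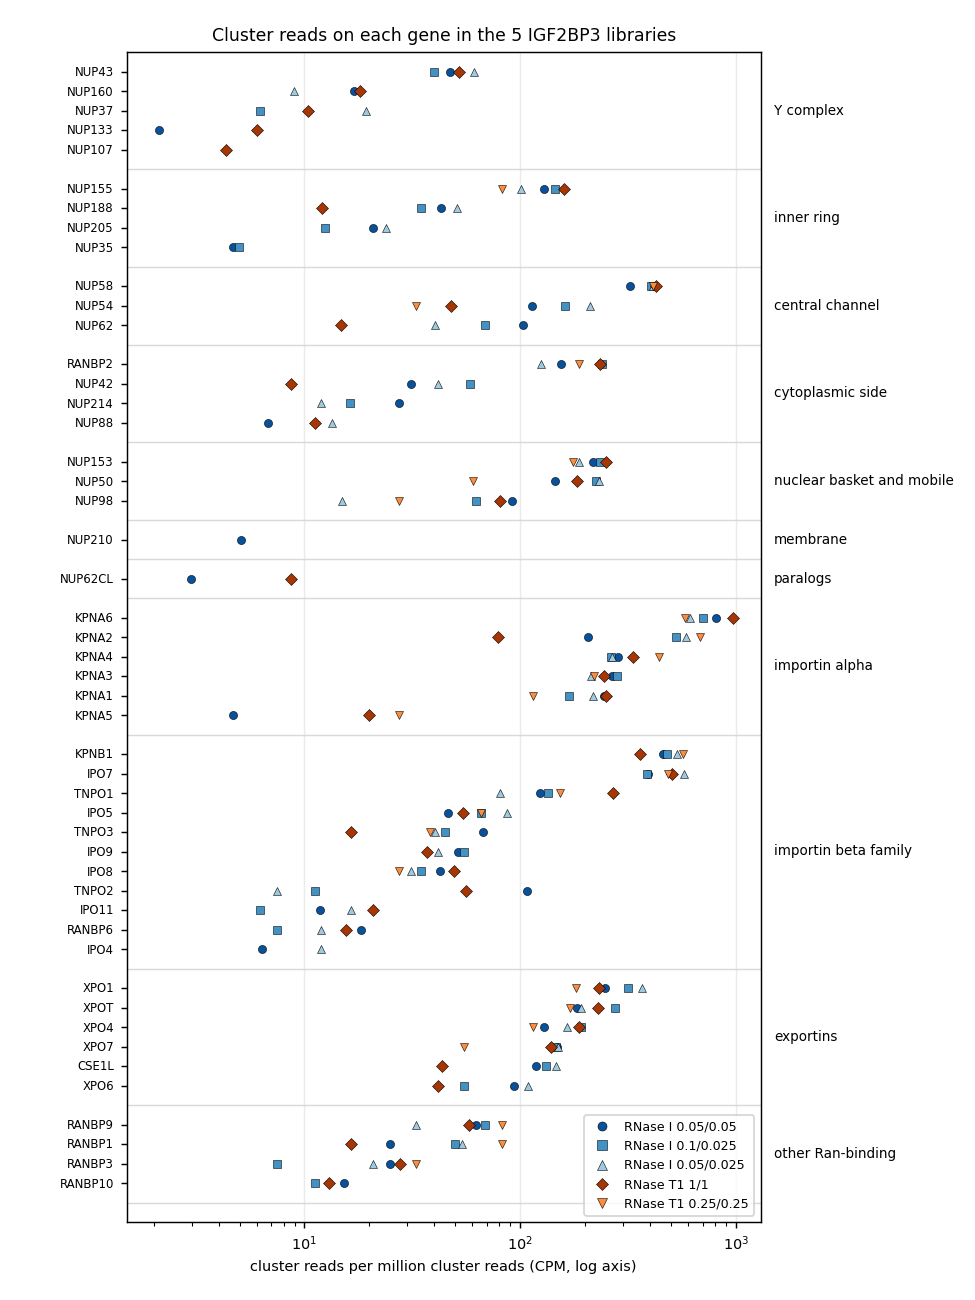
Cluster reads in CPM (log axis) of the 48 genes with a cluster, grouped by role; each point is 1 IGF2BP3 library. KPNA6 lies furthest to the right, between 581 and 973 CPM, and the 5 points of KPNA2 spread from 78.6 to 680.

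Importin alpha genes held the most reads of any role, 33.4% of the summed mean CPM of the 54 genes, and 5 of the 7 were targets in all 5 libraries. KPNA6 was the highest of all members, with 807, 707, 614, 973 and 581 CPM (mean 736, SD 159, n = 5 different treatments), a mean above 99.2% of protein-coding genes. The highest and lowest KPNA6 values, both with RNase T1, lay less than 2-fold apart. KPNA2, the importin alpha known for its high level in dividing cells, had 206, 526, 584, 78.6 and 680 CPM, the widest spread among the high members. Per kb of canonical transcript KPNA2 was first, at a mean of 210 CPM per kb, followed by KPNA6 at 100.

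KPNA4 had 284, 264, 267, 334 and 438 CPM, KPNA3 had 266, 280, 213, 244 and 219 CPM, and KPNA1 had 244, 168, 218, 250 and 115 CPM. The KPNA3 range overlapped those of KPNA4 and KPNA1, whereas each KPNA4 value was above each KPNA1 value. KPNA5 reached 4.66 CPM with RNase I 0.05/0.05, 19.9 with RNase T1 1/1 and 27.4 with RNase T1 0.25/0.25, had no cluster in the other RNase I libraries and was a target in none. KPNA7 had no cluster.

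In the importin beta family, 10 of 12 genes were targets in at least 1 library and 2, KPNB1 and IPO7, in all 5. KPNB1, the partner of importin alpha, had 459, 482, 531, 358 and 570 CPM. IPO7, an importin of ribosomal proteins and other cargo, had 391, 386, 576, 505 and 482 CPM. The ranges of KPNB1 and IPO7 overlapped, with means of 79.2 and 75.9 CPM per kb. TNPO1, the receptor of proline-tyrosine signals, had 124, 134, 80.5, 269 and 153 CPM. Its highest value was with RNase T1 1/1. IPO5 had 46.1, 66.0, 86.5, 54.4 and 65.8 CPM, yet was a target in the 3 RNase I libraries only. TNPO3, which imports SR splicing factors, had 66.9, 44.8, 40.3, 16.4 and 38.4 CPM, lowest with RNase T1 1/1. TNPO2 reached 108 CPM with RNase I 0.05/0.05 and 56.2 with RNase T1 1/1, against 11.2 and 7.45 in the other RNase I libraries and no cluster with RNase T1 0.25/0.25. IPO8, IPO9, IPO11, RANBP6 and IPO4 had mean levels from 3.66 to 37.1 CPM.

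Of the 7 exportins, 6 were targets in at least 1 library, and XPO1, XPOT and XPO4 in all 5. XPO1, the exportin of leucine-rich signals, had 246, 317, 367, 231 and 181 CPM. XPOT, the tRNA exportin, had 184, 275, 191, 230 and 170 CPM, and XPO4 had 129, 192, 164, 187 and 115 CPM. Each of these exportins was lowest with RNase T1 0.25/0.25. CSE1L, which returns importin alpha to the cytoplasm, had 119, 132, 146 and 43.2 CPM and no cluster with RNase T1 0.25/0.25. XPO6, the actin exportin, had 93.5, 54.8, 109 and 41.5 CPM and also no cluster there. XPO7 had 148, 147, 149, 138 and 54.8 CPM.

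Among the 54 genes, nucleoporins carried fewer reads than receptors. The 24 nucleoporins held 25.2% of the summed mean CPM and the 26 receptors 72.5%, and the median level was 2.43 against 14.6 CPM per kb. Of the nucleoporins 15 were targets in at least 1 library and 4 in all 5, whereas for the receptors these counts were 21 and 10. The symbol rule leaves out other nucleoporins, such as POM121 (described below), NDC1 (mean of 317 CPM) and SEH1L (198 CPM). It also leaves out receptors such as XPO5 (26.4 CPM). The 3 channel nucleoporins, which form 1 subcomplex, held the most reads of the nucleoporin groups, 9.61% of the summed mean CPM. NUP58 had 321, 403, 414, 425 and 411 CPM, NUP54 had 113, 162, 210, 47.5 and 32.9 CPM, and NUP62 had 103, 68.5, 40.3 and 14.7 CPM and no cluster with RNase T1 0.25/0.25. NUP58 stayed level across the treatments, and both NUP54 and NUP62 were lower with RNase T1 than in each RNase I library.

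At the nuclear basket, NUP153 had 217, 234, 186, 249 and 175 CPM, NUP50 had 145, 224, 233, 183 and 60.3 CPM, and the mobile NUP98 had 91.9, 62.2, 14.9, 80.4 and 27.4 CPM. On the cytoplasmic side, RANBP2, the large nucleoporin with SUMO ligase activity, had 155, 240, 125, 233 and 186 CPM. NUP42 had 31.3, 58.5, 41.7 and 8.64 CPM and no cluster with RNase T1 0.25/0.25. NUP214 had 27.5, 16.2 and 11.9 CPM with RNase I and no cluster with RNase T1. RANBP2 and NUP153 were targets under every treatment, and NUP214 in 1 library.

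Of the scaffold genes chosen by the symbol rule, NUP155 of the inner ring had the highest mean level, 123 CPM. NUP43 followed at 40.0 CPM, above 82.6% of protein-coding genes, and NUP188 at 28.1 CPM, above 79.8%. The 6 Y complex genes held 1.02% of the summed mean CPM, with 2 targets in at least 1 library and 0 in all 5. NUP43, the highest of them, had 47.4, 39.8, 61.1 and 51.8 CPM and no cluster with RNase T1 0.25/0.25. NUP107 had a cluster only with RNase T1 1/1 (4.32 CPM), NUP133 had 2.12 and 6.05 CPM in the electroeluted libraries only, and NUP85 had none. The symbol rule leaves out other Y complex genes. Of these, SEH1L had a mean of 198 CPM and was a target in all 5 libraries. AHCTF1 had a mean of 67.3 CPM and SEC13 of 5.19 CPM. Of the inner ring, NUP155 had 128, 144, 101, 159 and 82.2 CPM, whereas NUP93 had no cluster. NUP188 had 42.8, 34.8, 50.7 and 12.1 CPM and no cluster with RNase T1 0.25/0.25. NUP205 had 20.7, 12.4 and 23.9 CPM with RNase I and no cluster with RNase T1. The membrane nucleoporin NUP210 had 5.08 CPM with RNase I 0.05/0.05 only, and the paralog NUP62CL had 2.96 and 8.64 CPM in the electroeluted libraries only. Of the other Ran-binding genes, RANBP9 had 62.2, 68.5, 32.8, 57.9 and 82.2 CPM and RANBP1, which stimulates GTP hydrolysis on Ran, had 25.0, 49.8, 53.7, 16.4 and 82.2 CPM.

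Among 21 further genes of the pathway, 20 had a cluster, 14 were targets in at least 1 library and 6 in all 5. The matching shares over all protein-coding genes were 46.7%, 29.5% and 9.91%. Both POM121 and POM121C are among the 6. The membrane nucleoporin POM121 had 1423, 1485, 1452, 969 and 1644 CPM, with a mean of 1395 CPM. POM121C had 1397, 1485, 1457, 959 and 1628 CPM. Reads of these near-identical copies cannot be told apart and may have been counted on both. Neither level can therefore be ranked against the 54 genes. RAN had 486, 733, 735, 353 and 899 CPM, highest in the crushed-gel libraries. SNUPN had no cluster.

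Reads of the transport genes lay in coding sequence more often than those of protein-coding genes as a whole. Each cluster was placed on the Ensembl canonical transcript by its middle nucleotide, a setting chosen after the data had been seen. The coding share of member reads was 34.4% (33.6 to 35.2), 32.1% (30.8 to 33.4), 32.1% (30.7 to 33.6), 23.0% (22 to 24.0) and 14.7% (12.6 to 17.2). Over all protein-coding genes it was 19.4%, 17.6%, 18.8%, 11.9% and 12%. The share was higher with RNase I than with RNase T1 in both sets of genes. Counting a cluster as 3′UTR wherever any annotated transcript has its 3′UTR there, 76.4%, 79.1%, 79.0%, 84.0% and 90.9% of member reads lay in 3′UTRs, beside 85.7%, 87.8%, 86.9%, 90.6% and 91.3% of reads of all protein-coding genes.

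Over the 33 transport genes with at least 100 reads in all, the median coding share was 27.7%, beside 5.19% over 5111 protein-coding genes. More than 50% of reads were coding in 10 of 33 (30.3%), beside 12.2% of all genes. At least 90% lay in the 3′UTR in 9 of 33 (27.3%), beside 56.7%. Coding sequences of these 33 genes were also long, with a median of 2697 nt against 1323 nt over the 5111 genes, while 3′UTRs had medians of 1908 and 1950 nt. Per kb, reads were denser in coding sequence than in the 3′UTR in 5 of the 33 genes (15.2%), a share near the background of 11.8%. These were RANBP2, NUP42, NUP98, CSE1L and NUP62. The part of coding length in the coding share was not otherwise tested.

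The roles differed in where their reads lay. On the cytoplasmic side 93.8% of reads were coding (92.3 to 95), for exportins 57.2% (55.8 to 58.6), for the basket and mobile group 50.0% and for the inner ring 40.8%. Importin beta genes had 29.3% and importin alpha genes 5.38% (4.95 to 5.84). Reads were pooled within a role, so genes with many reads weigh most, and the intervals do not cover differences between genes. RANBP2 gave 922 of the 1154 coding reads of the cytoplasmic side, and XPO1 gave 952 of the 2818 of the exportins. RANBP2 had 922 of 947 reads in coding sequence (97.4%), and the share was at least 93.3% in every library. NUP42 had 93.7%, with 100% in each RNase I library and 0% on the 10 reads of RNase T1 1/1. CSE1L had 86.5%, NUP98 86.4% and NUP153 74.1%. For NUP153 the share was 79.1%, 81.9%, 72.0%, 63.2% and 56.3%, lower with RNase T1. XPOT fell in the same direction, with 62.4%, 43.9%, 55.5%, 22.9% and 16.1%, as did KPNB1, with 28%, 16.8%, 27.2%, 3.14% and 0%. XPO1 differed, with 66.1%, 73.3%, 69.1%, 68.5% and 84.8%. At the other end, KPNA6 had 0.0729% and KPNA1 0.342% of reads in coding sequence, and RANBP1 and RANBP3 had 0%.

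Per kb, the 3′UTR was denser in most genes, also in several whose reads were mostly coding. KPNA2 had 1360 CPM per kb of its short 3′UTR of 258 nt and 35.6 CPM per kb of coding sequence, a 38.2-fold difference. RANBP2 had 19.0 CPM per kb of coding sequence and 1.94 CPM per kb of 3′UTR, a 9.81-fold difference the other way. XPO1 had 59.7 CPM per kb in coding sequence and 78.5 in the 3′UTR. The 3′UTR was also denser in NUP153 (34.0 in coding sequence against 58.1 in the 3′UTR), XPO6 (12.8 against 29.4), XPO7 (25.2 against 30.2) and TNPO3 (6.65 against 18.6). For several genes the coding share depended on the annotation. With a cluster counted as 3′UTR wherever any transcript has its 3′UTR there, the coding share was 0.796% for XPO1, 0% for NUP42, 62.9% for NUP98, 74.0% for RANBP2 and 71.1% for NUP153, and 86.5% as before for CSE1L.

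**Figure D2:**
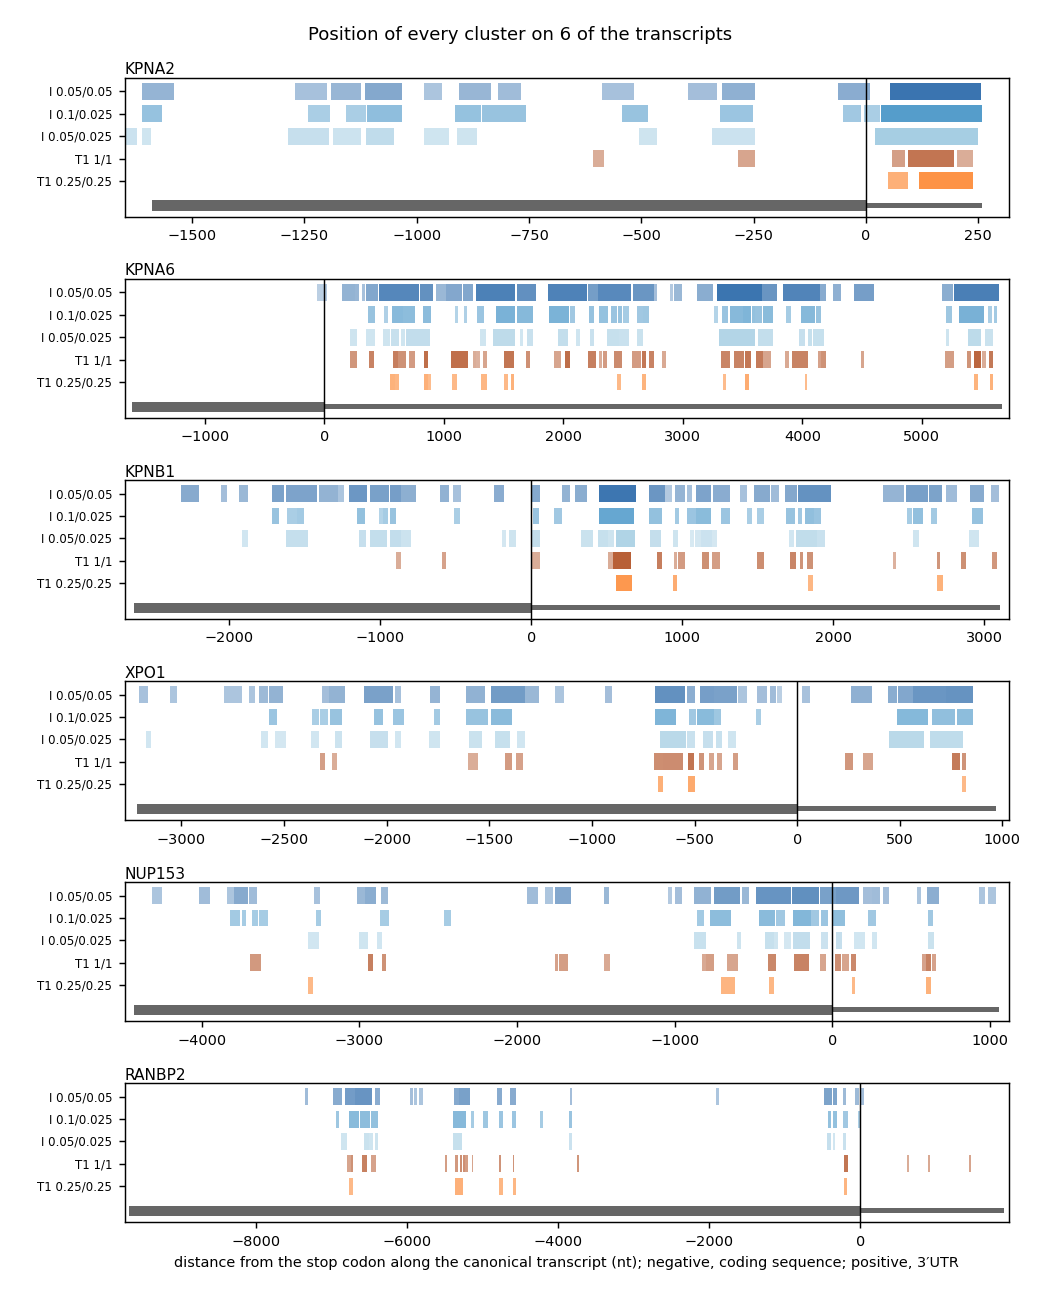
Position of every cluster on the canonical transcripts of KPNA2, KPNA6, KPNB1, XPO1, NUP153 and RANBP2, in nt from the stop codon (negative, coding sequence; positive, 3′UTR). Each row of bars is 1 IGF2BP3 library, a darker bar has a higher CPM within that library, and the grey line is thick over coding sequence; KPNA6 clusters lie in the 3′UTR, whereas those of RANBP2 run along its coding sequence.

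**Figure D3:**
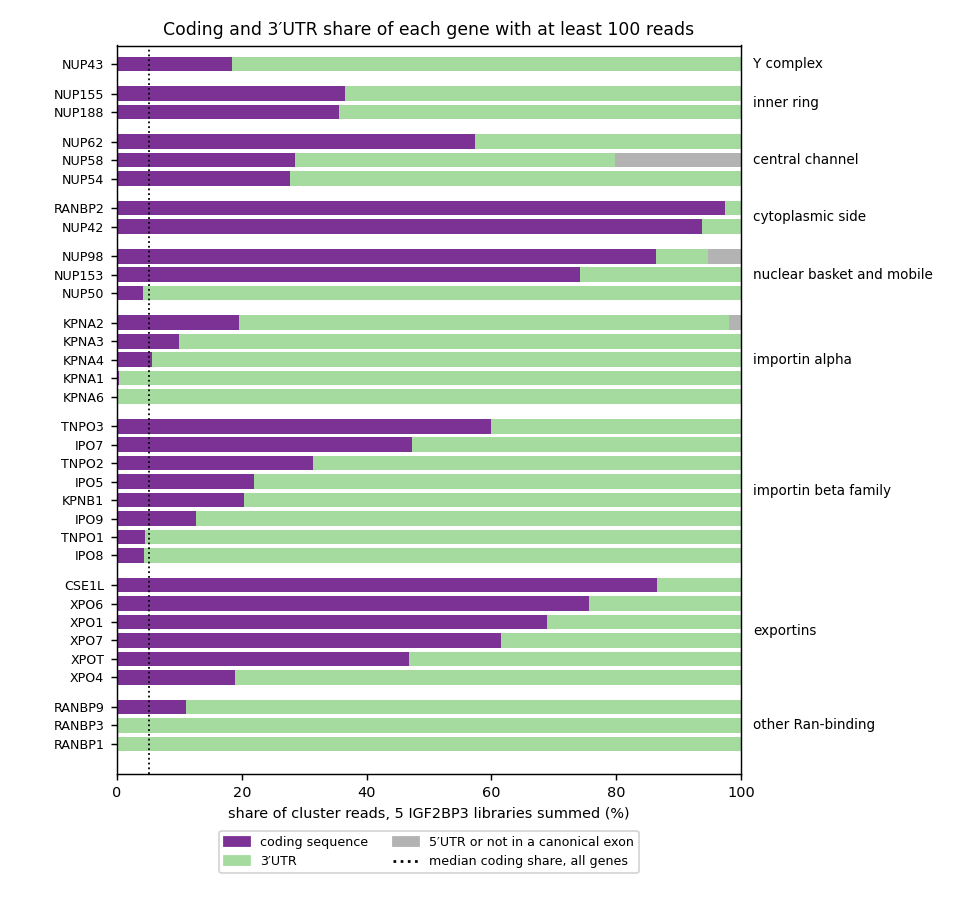
Share of cluster reads in coding sequence and in the 3′UTR of the canonical transcript for the 33 genes with at least 100 reads, with the reads of the 5 IGF2BP3 libraries summed and genes grouped by role. The coding share runs from 0% for RANBP1 and RANBP3 to 97.4% for RANBP2.

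Some coding sites lay under clusters of all 5 libraries. The strongest such site of at least 10 nt is shown for each of 4 genes, chosen after the values had been seen, to set coding sites beside the 3′UTR sites above, with the same capitals. They are XPO1 chr2:61484055-61484067 (minus strand, exon 21 of 25), IPO7 chr11:9434969-9434994 (plus strand, exon 19 of 25), RANBP2 chr2:108764918-108764943 (plus strand, exon 20 of 29) and NUP153 chr6:17624679-17624708 (minus strand, exon 20 of 22).
XPO1: cttactacttcag
IPO7: gatacagacacacttctgtctgacac
RANBP2: gccagggagatcttcctaaacctatt
NUP153: tctatatCATCttccacagCATTatttccc
The NUP153 window held 2 of the marked elements and the other windows 0. The XPO1 site held 33.4, 52.3, 65.6, 17.3 and 60.3 CPM, and the RANBP2 site 14.4, 34.8, 20.9, 17.3 and 54.8 CPM. The coding site of IPO7 held 29.6, 31.1, 38.8, 34.6 and 65.8 CPM. The NUP153 site held 28.8, 29.9, 20.9, 23.3 and 32.9 CPM and varied least among the 4 coding sites.

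The marked element was as common in clusters of the transport genes as in those of other genes. CAT followed by A, C or T, read on the transcribed strand, was present in 62.6%, 64.9%, 67.4%, 61.3% and 66.0% of member clusters and in 64.2%, 66.6%, 65.8%, 61.1% and 65.8% of clusters on all protein-coding genes. Median cluster lengths were 56, 51, 51, 32 and 32.5 nt for members and 57, 55, 55, 34 and 38 nt for protein-coding genes. For this element, the interval of every member share contained the share over protein-coding genes. CATT alone was present in 39.4%, 40.9%, 43.3%, 32.5% and 42.6% of member clusters, beside 39.5%, 41.6%, 41.0%, 35.2% and 40.0%. GGAC, a form of the motif known for N6-methyladenosine, was present in 13.9%, 11.3%, 11%, 4.22% and 4.26% of member clusters and in 17.1%, 14.8%, 14.4%, 5.48% and 5.93% of clusters on protein-coding genes. These GGAC shares were lower for members, with intervals below the protein-coding share for RNase I 0.05/0.05 (11.6% to 16.5%) and RNase I 0.1/0.025 (8.54% to 14.76%). With 1 cluster per gene that order did not hold with RNase I 0.1/0.025 (25% for members against 21.5%). CAGT was present in 35.5%, 29.3%, 32.8%, 11.7% and 20.2% of member clusters, beside 34.9%, 35.2%, 34.2%, 11.8% and 18.7%. Its interval with RNase I 0.1/0.025 (25.1% to 34.0%) lay below the protein-coding share, but with 1 cluster per gene members had 50% against 48.2%. Member clusters had 0.644, 0.648, 0.617, 0.506 and 0.559 conversions per read, close to 0.638, 0.651, 0.608, 0.512 and 0.552 over protein-coding genes.

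RNase I and RNase T1 were compared within each kind of gel extraction. Between the electroeluted libraries, 41 members had at least 20 reads over both. A gene with a cluster in only 1 library of a pair was counted as past the fold, for members and background alike, although the size of its ratio is unknown. A CPM at least 2-fold higher with RNase I was found in 10 of them (24.4%), near the background of 25.2% of protein-coding genes. A CPM at least 2-fold higher with RNase T1 was found in 2 (4.88%), beside 15.6%. The median log2 ratio of RNase I over RNase T1 was −0.03. NUP62 showed the largest ratio among genes with clusters in both, 7.0 (4.28 to 12.2), followed by TNPO3 at 4.07 (2.52 to 6.95), NUP42 at 3.62 (1.86 to 7.87), NUP188 at 3.53 (2.01 to 6.69) and CSE1L at 2.74 (2.02 to 3.78). KPNA2 (2.62), NUP54 (2.38) and XPO6 (2.26) also passed, as did NUP205 and NUP214, which had no cluster with RNase T1 1/1. The genes higher with RNase T1 were KPNA5, 4.27-fold (2.00 to 9.70), and TNPO1, 2.17-fold (1.84 to 2.55). NUP62CL and NUP133 had log2 ratios of −1.54 and −1.52 on 17 and 12 reads in all, which is under the read minimum. IPO11 had a log2 ratio of −0.81. IPO11 had 11.9, 6.22, 16.4 and 20.7 CPM and no cluster with RNase T1 0.25/0.25.

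Between the crushed-gel libraries RNase I 0.1/0.025 and RNase T1 0.25/0.25, 31 members had enough reads. Of these 11 (35.5%) were at least 2-fold higher with RNase I, beside 40.6% of protein-coding genes, and 0 were higher with RNase T1, beside 6.28%. In 7 of the 11 the RNase T1 library, the shallowest of the 5, had no cluster on the gene: IPO9, NUP43, NUP42, NUP188, XPO6, NUP62 and CSE1L. The others were NUP54 at 4.92 (2.20 to 13.7), NUP50 at 3.72 (2.03 to 7.58), XPO7 at 2.68 and NUP98 at 2.27. For 6 of the 31 members tested in both pairs (19.4%, beside 13% of protein-coding genes) this count named the gene as higher with RNase I in both: CSE1L, NUP188, NUP42, NUP54, NUP62 and XPO6. Of these, NUP54 alone had a cluster in the RNase T1 0.25/0.25 library, so for the other 5 no ratio can be given in the crushed-gel pair. For 0 members was it so with RNase T1 in both pairs, beside 2.4% of protein-coding genes. KPNA2 turned round, with a ratio of 0.775 (0.633 to 0.954) from crushed gel. IPO5, NUP188 and NUP42 were targets in all 3 RNase I libraries and in neither RNase T1 library, 3 of 54 beside 2.17% of protein-coding genes. The reverse held for 0 genes, beside 0.244%.

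**Figure D4:**
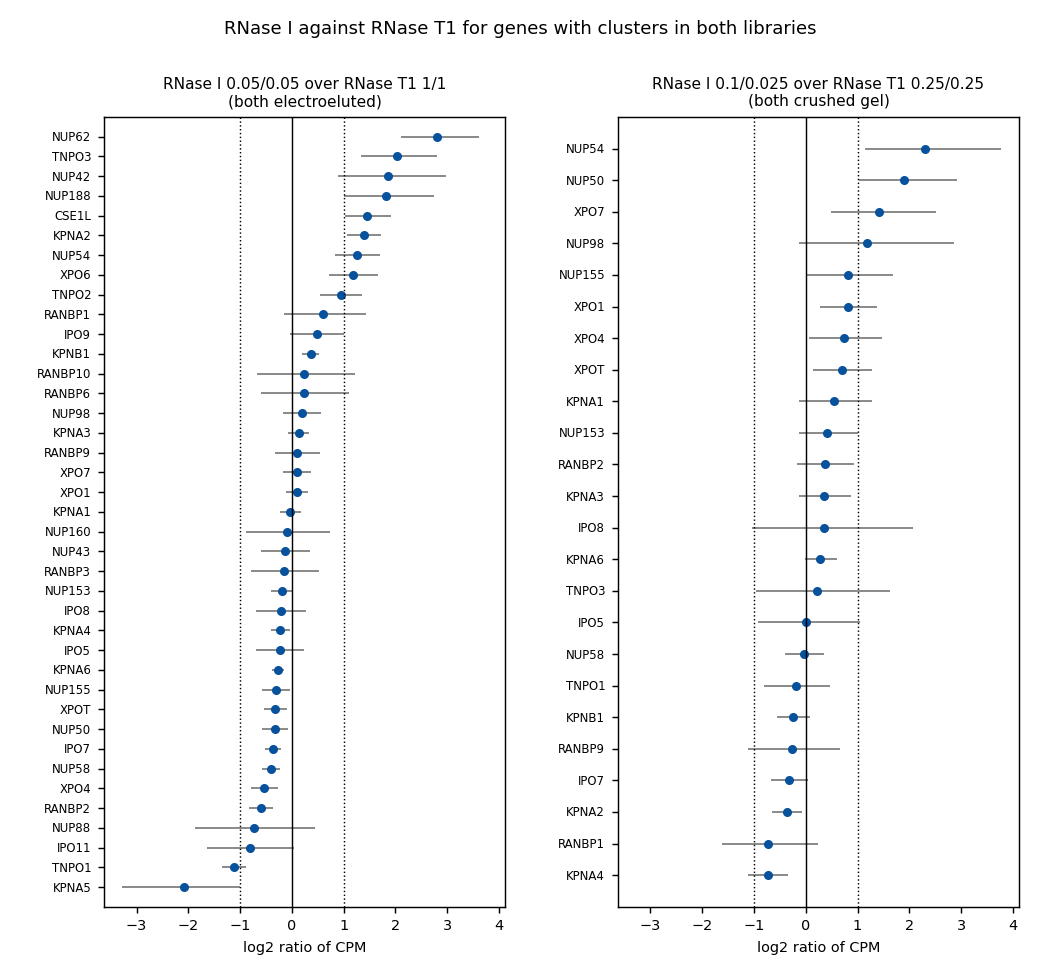
Log2 ratio of CPM, RNase I over RNase T1, for genes with clusters in both libraries, with 39 genes in the electroeluted pair and 24 in the crushed-gel pair. Bars are 95% intervals for counting error; NUP62 lies at the top of the electroeluted pair and KPNA5 at the bottom, and KPNA2 lies above 0 in the electroeluted pair and below 0 in the crushed-gel pair.

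Clusters covered more of the 3′UTR with RNase I 0.05/0.05 than with RNase T1 1/1. Coverage was broader in 34 of 36 members (94.4%), as in 94.7% of all protein-coding genes, with medians of 31.1% and 9.03% of the 3′UTR. This RNase I library was also deeper, with 2362467 against 1157194 cluster reads. RNase I 0.1/0.025, with 803490, was broader than RNase T1 1/1 in 22 of 30 members (73.3%, beside 69.5%). Medians there were 14.8% and 11.1%. The part of depth was not otherwise tested. The 5669 nt of the KPNA6 3′UTR were covered to 74.1%, 40.4%, 35.1%, 34.1% and 8.73%. That of KPNA2 was covered to 81.8%, 99.2%, 88.8%, 64.3% and 64.0%. KPNA6 coverage fell with the depth of the library among the RNase I libraries, whereas the short KPNA2 3′UTR was mostly covered in each.

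The crushed-gel and electroeluted libraries of each enzyme were also compared, knowing that concentration changed with extraction. With RNase I, 0.05/0.025 (crushed gel) was set against 0.05/0.05 (electroeluted) over 41 members. Here 2 members (4.88%) were at least 2-fold higher from crushed gel, beside 4.58% of protein-coding genes, and 5 (12.2%) with electroelution, beside 33.9%. With RNase T1, 0.25/0.25 against 1/1 over 33 members, 3 (9.09%) were higher from crushed gel, beside 9.11%, and 11 (33.3%) with electroelution, beside 53.4%. Of these 11, 7 had no cluster in the crushed-gel library, as did 1 of the 5 with RNase I. Such genes counted as past the fold in the background too. Of the protein-coding genes tested, 5801 of 6926 had clusters in both RNase I libraries and 3212 of 5344 in both RNase T1 libraries. How much of the background shares comes from missing clusters was not counted. The lower member shares with electroelution therefore cannot be read as smaller changes.

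KPNA2 and RANBP1 were higher from crushed gel with both enzymes, 2 of 32 members tested in both (6.25%, beside 1.81% of protein-coding genes). The KPNA2 ratio was 2.84 (2.48 to 3.25) with RNase I, above 97.4% of 5801 genes, and 8.64 (6.54 to 11.5) with RNase T1, above 99.3% of 3212 genes. The RANBP1 ratios were 2.15 (1.38 to 3.31) and 5.01 (2.37 to 10.4). NUP98 and TNPO2 were counted as higher with electroelution for both enzymes, also 2 of 32, beside 24.6% of protein-coding genes. That background share also counts genes with no cluster in a crushed-gel library. The NUP98 ratios of crushed gel over electroelution were 0.162 (0.0767 to 0.304) and 0.341 (0.108 to 0.825). For TNPO2 the ratio was 0.0691 (0.0222 to 0.163) with RNase I, and the RNase T1 0.25/0.25 library had no cluster on it. TNPO3 was higher from crushed gel with RNase T1 only.

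**Figure D5:**
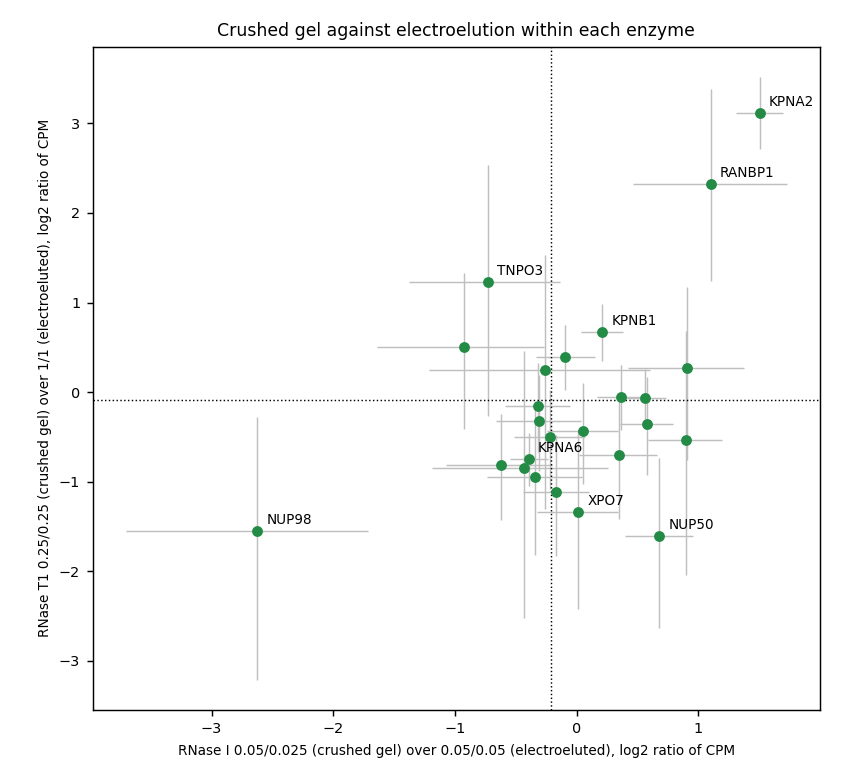
Log2 ratio of CPM, crushed gel over electroelution, with RNase I on the horizontal axis and RNase T1 on the vertical axis, for the 25 genes with clusters in all 4 libraries and enough reads. Bars are 95% intervals for counting error and dotted lines are the medians of all genes; KPNA2 and RANBP1 lie at the upper right and NUP98 at the lower left.

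Some members have copies in the genome whose reads could be mixed with theirs, since how reads with several positions were treated is not given in the sources used here. Over the 5 libraries IPO8 had 211 reads and its pseudogene IPO8P1 had 177, so the IPO8 level is uncertain. IPO7 had 2291 reads beside 224 on IPO7P2 and 154 on IPO7P1. XPOT had 1080 beside 200 on XPOTP1, and KPNA2 had 1517 beside 73 on KPNA2P3. RANBP2 had 947 reads, and its paralogs RGPD5, RGPD6, RGPD8, RGPD3 and RGPD4 had from 12 to 43 each. With RNase T1 1/1, RGPD5, RGPD6, RGPD8 and RGPD3 had 21 reads each. The counts of copies may thus hold the same reads more than once, which was not tested. Exons shared with another annotated gene on the same strand held 13.9% of KPNA6 reads, 12% of NUP62 reads and 10.3% of IPO11 reads.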

How the data were processed

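The authors removed PCR duplicates by their molecular identifiers with UMI-tools 1.1.1, trimmed reads with Trimmomatic 0.30, aligned them to GRCh38.p13 with Bowtie 0.12.7 and called clusters in each library separately with PARalyzer. The deposited files give raw counts per cluster (reads and conversion events). The deposited mode score, a fraction, was not used. Clusters were assigned to genes by an overlap of at least 1 nt with same-strand exons of GENCODE 44, and their sequences equalled GRCh38 for all 244645 clusters. CPM, ratios and shares were computed with Python 3.11.15, pandas 2.3.3 and bedtools 2.31.1. Scripts were tested on simulated data. Shares have Wilson 95% intervals and ratios exact conditional intervals, which cover counting error only. Each sample was its own group, so no test between treatments was made. At 182448 to 2362467 cluster reads, 10 CPM corresponds to 1.82 to 23.6 reads. The files list only called clusters, so a gene without a cluster has no upper limit here. The members and lists were chosen with earlier results of these data known. Any member could be named. Values in every library were given for the 12 members with the highest mean CPM, the highest of each role, the 5 highest and 5 lowest ratios between the electroeluted libraries, and members called with 1 enzyme only. The sequence of 1 common site is not reported here.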

Additional observations from a re-analysis of the deposited data

How the results depend on the processing

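Alternatives were computed for targets, feature shares, fold counts, coverage, common sites and tetramers. Target counts in the order of the libraries above became 10, 18, 22 and 14 (first 4 libraries) with more than 0.75 conversions per read. Above 20 CPM, RNase I 0.05/0.025 had 18 and RNase T1 1/1 had 14. With at least 20 reads in place of CPM, RNase I 0.05/0.025 had 13 and RNase T1 0.25/0.25 had 2, since 10 CPM is under 20 reads there. Shares over all protein-coding genes are not given for these target settings. Whether the excess of members over the background remains cannot be read from these counts. The 3′UTR share became 60.2%, 64.2%, 64.3%, 75.7% and 82.5% with coding sequence counted first, and 64.3%, 66.5%, 66.7%, 74.8% and 85.3% on the canonical transcript, chosen after seeing the data. With clusters on exons of 1 gene only, the member share of reads was 0.555% (RNase I 0.05/0.05) and 0.561% (RNase T1 1/1).

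In the electroeluted pair, 6 members were 3-fold higher with RNase I, and 5, 1 and 1 were higher with RNase T1 at 1.5-fold, at 3-fold and with at least 50 reads. In the crushed-gel pair, 6 were higher with RNase I with at least 50 reads and 2 with RNase T1 at 1.5-fold. Shares over all protein-coding genes are not given for these fold settings, so the counts cannot be set against a background. Coverage was broader with RNase I in 19 of 21 members for clusters above 10 CPM (90.5%, beside 92.7% of all genes), and in 22 of 30 for RNase I 0.1/0.025 against RNase T1 1/1 (73.3%, beside 69.5% of all genes).

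Longer windows hold a tetramer more often. With clusters extended by 10 nt, CATT rose to 44.7%, 46.9%, 49.1% and 40.4% (first 4 libraries), CATA to 25.2% and 29.6% (first 2), CATC to 33.3% (RNase I 0.1/0.025), CAGT to 40.1%, 36.3%, 39.5%, 25.6% and 33.0%, and GGAC to 17.0%, 15.1% and 9.93% (both RNase I libraries with 0.05 in the lysate, and RNase T1 1/1). With 1 cluster per gene, CATT was 58.7%, 67.5%, 63.4% and 69.2% (RNase I and RNase T1 0.25/0.25), CATA 50%, 42.5%, 41.5% and 27.9% (first 4), CATC 52.2%, 40% and 27.9% (RNase I 0.05/0.05 and 0.1/0.025, RNase T1 1/1), CAGT 69.6%, 50%, 43.9%, 18.6% and 34.6%, and GGAC 26.1%, 25% and 19.5% (RNase I). Protein-coding genes then had, for the same libraries, CATT 60.1%, 56.8%, 54.9% and 46.9%, CATA 39.7%, 35.7%, 33.2% and 26.4%, CATC 48.1%, 42.3% and 29.0%, CAGT 52.5%, 48.2%, 45.2%, 12.7% and 19.5%, and GGAC 28.2%, 21.5% and 19.8%. Of these, the intervals of CAGT with RNase I 0.05/0.05 (55.2% to 80.9%) and CATT with RNase T1 0.25/0.25 (50.0% to 83.5%) lay above the share over protein-coding genes. The intervals were not corrected for the number of shares compared. With RNase I 0.05/0.05 the member clusters were also longer here, with a median of 117 nt against 103 nt. CATT with RNase T1 1/1 lay the other way, at 32.6% for members against 44.9% over protein-coding genes, with an interval (20.5% to 47.5%) that contained the latter. The other alternatives kept their values within 1.5 times or within counting error. No paired analysis was possible because each treatment has 1 library.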
